A study of Mus musculus with 2 samples.

Results

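Of 188044 merged DNase-seq peak regions in mouse erythroid cells, 3247 had their best summit at the 3' end of a protein-coding gene and are described here. A region was taken when the summit of its highest-ranked peak lay within 1 kb of the last base of a protein-coding gene and more than 5 kb from every annotated transcript start. Of all regions, 121077 met the second condition, and these are called distal. The comparison was between G1E-ER4 cells differentiated for 24 h with 10 nM beta-estradiol and untreated G1E cells. G1E is a male erythroid progenitor line of strain 129 without Gata1, a zinc finger factor that red cell maturation depends on. G1E-ER4 is its derivative in which Gata1 activity was put back as a fusion that responds to estradiol. Each state was 1 sample of 1 line with 2 peak lists, of 100000 peaks each, and nothing in the labels tells separate cultures from repeats of one. Line, restored gene and estradiol differ together between the states and cannot be told apart. The 3' end regions lay at the ends of 2904 of 22380 protein-coding genes. Of these genes, 2443 had 1 region, 431 had 2 and 30 had 3. In 147 cases a region lay within reach of the ends of more than 1 gene.

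The 3' end of a gene is where the nascent transcript is cleaved and polyadenylated and where RNA polymerase II is released from the template. The poly(A) signal just before the cleavage site and the sequence around it are poor in G and C. Open sites at gene ends can also be enhancers of the same or of a neighbouring gene, boundary elements bound by the insulator protein CTCF, or starts of unannotated transcripts. In erythroid cells, Gata1 binds GATA letters, often beside Tal1, Lmo2 and Ldb1, at enhancers of which many lie downstream of genes.

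The sequences below are 200 bp around the best summit of 6 regions past the end of a gene, each outside annotated exons. They were read from the mm9 (NCBIM37) genome and are printed 5' to 3' on the plus strand. Slc23a3, an orphan member of the vitamin C transporter family, is shown as the highest-ranked region whose summit lies outside protein-coding genes. Lmo2, which bridges Tal1 and Gata1 complexes, and Slc25a37, the mitochondrial iron importer mitoferrin 1, are shown as strong regions of all 4 lists. Cbfb, the partner subunit of Runx factors, is shown as the listed blood gene with the largest rank difference towards G1E among regions of all 4 lists. Slc4a1, the red cell anion exchanger band 3, and Kit, the stem cell factor receptor, are shown as a maturation and a progenitor gene. Capitals mark GATA letters, meaning GATA between A or T before it and A or G after it, or the CTCF core motif, on either strand. No such letters were found in the Slc4a1 window. The windows of Bcl2l1 and Foxo3 were also read, hold no such letters and are not printed. Bcl2l1, in all 4 lists, ranked above Lmo2 by mean percentile (83.6 against 83.2). Over the 511 regions of all 4 lists, GATA letters stood in 34.6% and the CTCF core in 25.05%.
Slc23a3, chr1:75121538-75121737: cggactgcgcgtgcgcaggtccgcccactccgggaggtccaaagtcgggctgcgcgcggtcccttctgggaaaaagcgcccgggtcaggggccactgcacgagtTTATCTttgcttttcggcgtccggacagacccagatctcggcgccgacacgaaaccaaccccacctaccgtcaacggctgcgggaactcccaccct
Lmo2, chr2:103822482-103822681: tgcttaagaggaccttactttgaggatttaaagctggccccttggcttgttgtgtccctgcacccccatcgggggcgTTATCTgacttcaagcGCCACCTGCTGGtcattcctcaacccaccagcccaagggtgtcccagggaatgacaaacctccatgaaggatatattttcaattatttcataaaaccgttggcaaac
Slc25a37, chr14:69859667-69859866: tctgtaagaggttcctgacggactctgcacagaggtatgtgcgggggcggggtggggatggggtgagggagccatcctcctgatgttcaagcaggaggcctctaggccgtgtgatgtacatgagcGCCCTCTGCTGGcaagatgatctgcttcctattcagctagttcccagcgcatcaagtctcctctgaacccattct
Cbfb, chr8:107741904-107742103: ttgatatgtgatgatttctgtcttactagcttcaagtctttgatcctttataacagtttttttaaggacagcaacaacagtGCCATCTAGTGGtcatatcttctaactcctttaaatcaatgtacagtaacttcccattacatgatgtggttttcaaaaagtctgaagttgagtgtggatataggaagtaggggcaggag
Slc4a1, chr11:102209716-102209915: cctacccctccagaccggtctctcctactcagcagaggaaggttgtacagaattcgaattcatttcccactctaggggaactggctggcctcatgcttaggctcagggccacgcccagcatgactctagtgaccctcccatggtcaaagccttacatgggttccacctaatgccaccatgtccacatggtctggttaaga
Kit, chr5:76053151-76053350: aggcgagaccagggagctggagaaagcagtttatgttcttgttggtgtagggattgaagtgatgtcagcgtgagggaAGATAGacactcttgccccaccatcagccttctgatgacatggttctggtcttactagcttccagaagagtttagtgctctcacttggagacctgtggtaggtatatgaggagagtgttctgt

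The share of peaks at gene ends did not separate the states. G1E-ER4 lists 1 and 2 had 1.68% and 1.93% of their peaks at 3' ends, and G1E lists 1 and 2 had 1.89% and 1.87%. The range of the G1E-ER4 lists holds both G1E values. The means were 1.80% in G1E-ER4 and 1.88% in G1E, a difference of -0.08 percentage points. An exact permutation test over the 4 lists gave p = 1 (two-sided), but with a smallest p of 0.3333 it could pass no threshold, and it compares lists of 1 sample per state, not the states. As a share of distal peaks, the values were 3.17% and 3.32% in G1E-ER4, against 3.34% and 3.18% in G1E. The lists place a different number of peaks away from starts, and G1E-ER4 list 1 had the fewest distal peaks, 52847 against 56745 to 58786 in the other 3. Signal values were used only as percentiles within a list, with 100 for the strongest peak. Peaks at 3' ends had median percentiles of 48.5 and 45.05 in G1E-ER4 and 43.8 in both G1E lists. Both G1E-ER4 medians were above both G1E medians, by 2.98 points on average. The exact permutation test over the 4 lists gave p = 0.3333 (two-sided) for these medians. That is the smallest p it can reach, so it could pass no threshold here either. Distal peaks as a whole lay the other way, with median percentiles of 43.9 and 43.5 in G1E-ER4 lists 1 and 2 and 45.1 and 45.9 in G1E lists 1 and 2.

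The classes of presence at 3' ends had shares near those of all merged regions. All 4 lists had a peak in 511 of the 3247 regions (15.7%, Wilson 95% interval 14.5 to 17.0%). Over all merged regions the share was 15.7%, over distal regions 10.8%, and over distal regions 1 to 5 kb from a gene end 15.2%. G1E-ER4 alone, with both its lists, had a peak in 82 regions (2.53%, 2.04 to 3.12%), against 2.35% of all merged and 2.26% of distal regions. G1E alone, with both its lists, had a peak in 135 regions (4.16%, 3.52 to 4.9%), against 3.99% of all merged and 4.51% of distal regions. The shares of both one-state classes lay near these backgrounds, which fell inside their counting intervals. Pairs that mix the states were as common, since 119 regions were in G1E-ER4 list 2 and G1E list 2 alone and 125 in G1E-ER4 list 2 and G1E list 1 alone. The pairs with G1E-ER4 list 1 were fewer, 69 with G1E list 2 and 49 with G1E list 1. A single list held 1822 regions (56.1%), against 58.5% of all merged regions. Each state is 1 sample, so no test was made between the one-state counts.

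Regions of all 4 lists were wide, with a median of 2237 bp, against 1688 bp over all distal regions of all 4 lists. Merging ties width to presence, since a region spans all its overlapping peaks and counts every list with a peak anywhere in it. The shares by width are therefore a description, at 3' ends as elsewhere. In regions over 2000 bp wide, all 4 lists had a peak in 70.2% of 3' end regions (281 of 400) and in 62.5% of distal regions. Up to 500 bp, the shares were 0.181% (2 of 1104) and 0.535%. The median widths were 1009 bp for G1E-ER4-only and 823 bp for G1E-only 3' end regions. Regions of all 4 lists ranked slightly higher in G1E-ER4, by a median of 1.45 percentile points (G1E-ER4 mean minus G1E mean). The median difference between the lists of the same state was of like size, 1.81 points in G1E-ER4 and -1.64 in G1E (list 1 minus list 2). For regions of all 4 lists elsewhere, the median of G1E-ER4 minus G1E was -0.34 over all merged regions and -0.22 over distal ones. It was 1.20 over those 1 to 5 kb from a gene end. Both G1E-ER4 percentiles were above both G1E percentiles in 127 of the 511 regions (24.9%), against 19.0% over all regions of all 4 lists, 20.0% over the distal ones and 23.7% over those 1 to 5 kb from a gene end. Both were below in 73 (14.3%), against 16.2%, 18.9% and 15.4% in the same order. The tilt towards G1E-ER4 was thus shared by the neighbouring 1 to 5 kb.

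Summits were denser near gene ends than around them, but not at the end itself. Per accessible megabase, meaning bases more than 5 kb from every start, there were 152.5 summits within 1 kb of a gene end and 139.3 from 1 to 5 kb away. The ratio was 1.09 (exact counting interval 1.05 to 1.14). Over all such bases of the genome the density was 56.7 per Mb. The ratio was 1.07 and 1.15 in G1E-ER4 lists 1 and 2 and 1.16 in both G1E lists. Within 200 bp of the last base the density dropped to 113.5 per Mb, against 162.5 per Mb from 200 bp to 1 kb, a ratio of 0.698 (0.633 to 0.769). The dip was seen on both sides, with 111.5 summits per Mb in the last 200 bp of the gene and 115.5 in the first 200 bp past it. Each list had its own dip ratio, 0.902 (0.795 to 1.02) and 0.601 (0.525 to 0.685) in G1E-ER4 lists 1 and 2, against 0.704 (0.619 to 0.799) and 0.672 (0.589 to 0.765) in G1E lists 1 and 2. The interval of G1E-ER4 list 1 includes 1 and lies above those of G1E-ER4 list 2 and G1E list 2, so the depth of the dip differed more within G1E-ER4 than between the states. GC was 39.2% in the last 200 bp and 44.3% from 200 bp to 1 kb before the end. Past the end it was 43.1% in the first 200 bp and 44.3% from 200 bp to 1 kb. From 200 bp to 1 kb the summit density was 168.9 per Mb before the end and 156.3 past it. Over all merged regions, the steps down in GC and in density were thus both larger inside the gene. The density step was not larger inside in G1E-ER4 list 1 (77.2 to 70.3 inside, 83.4 to 74.6 past). Nor was it in G1E list 2 (90.2 to 60.1 inside, 97.7 to 66.3 past). The median GC of 200 bp around summits was 48.5% where G1E-ER4 list 1 had the best peak, 54.5% for G1E-ER4 list 2, 53.0% for G1E list 1 and 50.0% for G1E list 2. The part of base composition in the dip was not tested.

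**Figure D1:**
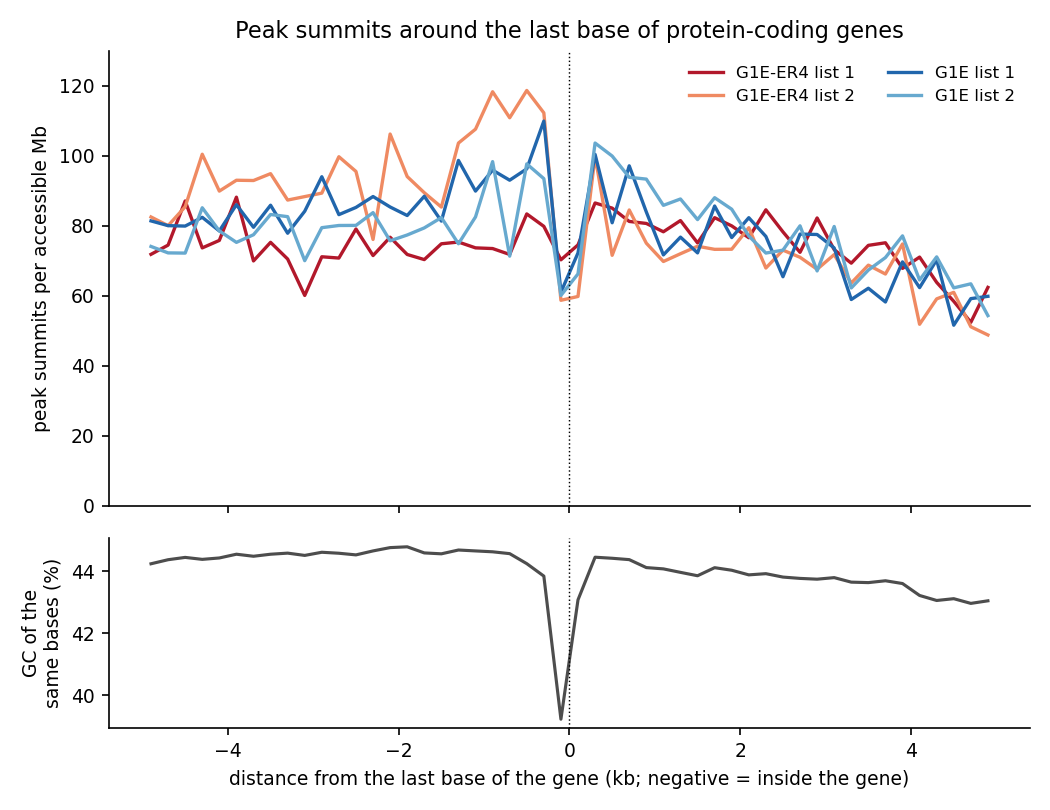
Peak summits per accessible Mb (upper panel, 1 line per list) and GC of the same bases (lower panel, %) in 200 bp bins against the distance in kb from the last base of protein-coding genes, negative inside the gene. The density drops next to the last base, least in G1E-ER4 list 1, and GC falls to 39.2% in the last 200 bp.

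The dip was found at genes with an open promoter. A promoter was counted as open in a list that had a peak over any base up to 1000 bp from a start of the gene. At 5853 gene ends with the promoter open in all 4 lists, 140.8 summits per Mb lay within 200 bp and 220.0 from 200 bp to 1 kb, a ratio of 0.640 (0.567 to 0.720). At 2510 ends with the promoter open in no list, the values were 55.2 and 53.7 per Mb, a ratio of 1.03 (0.749 to 1.39). These intervals do not overlap. The poly(A) signal AATAAA stood in the last 40 bases of 6371 of 10957 ends (58.1%), and the dip ratio was 0.691 (0.607 to 0.786) at those and 0.711 (0.610 to 0.826) at the others. Regions of all 4 lists had a ratio of 0.571 (0.433 to 0.742). G1E-ER4-only regions had 1.43 (0.837 to 2.37) and G1E-only regions 0.888 (0.551 to 1.38), both with intervals that include 1.

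**Figure D2:**
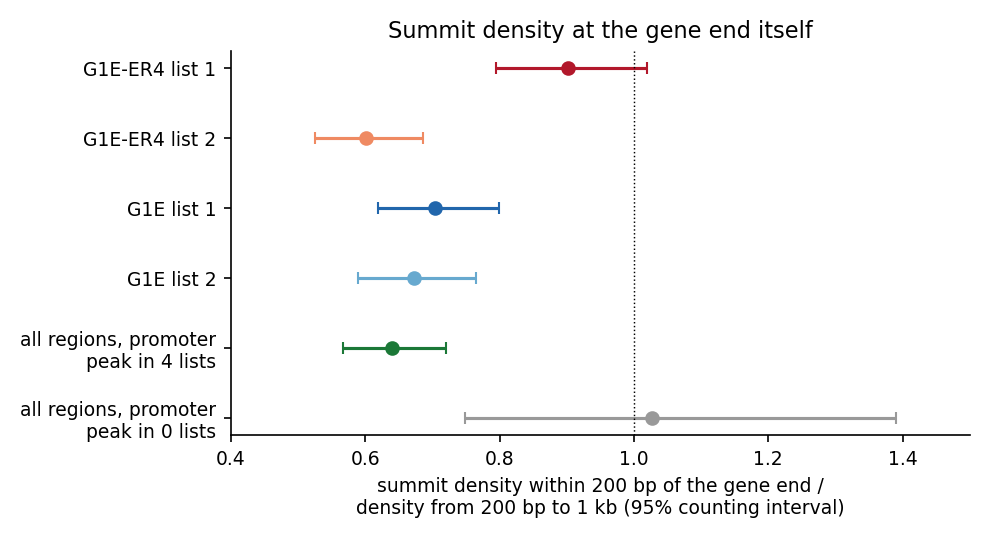
Summit density within 200 bp of the last base divided by the density from 200 bp to 1 kb, with exact 95% counting intervals, for each list and for all regions at genes with the promoter open in 4 or in 0 lists. The points run from 0.601 for G1E-ER4 list 2 to 1.03 for ends with no open promoter.

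Summits fell evenly on either side of the gene end. Of the 3247, 1595 lay past the last base (49.1%, 47.4 to 50.8%). The share was 51.5% for regions of all 4 lists, 42.7% (32.5 to 53.5%) for G1E-ER4-only and 54.8% (46.4 to 63.0%) for G1E-only regions. The region itself crossed the last base in 1203 cases (37.0%), and in 389 of the 511 regions of all 4 lists (76.1%), which are also the widest. By annotation, 1183 summits lay in an exon outside the coding sequence (36.4%), 235 in a coding exon (7.24%), 392 in an intron (12.1%) and 1437 outside protein-coding genes (44.3%). Exonic summits outside the coding sequence made up 43.9% (33.7 to 54.7%) of G1E-ER4-only and 34.1% (26.6 to 42.4%) of G1E-only regions, and the intervals overlap.

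Genes with an open promoter more often had an open 3' end. Of 10957 gene ends more than 5 kb from every start, 2790 carried a region (25.5%, 24.7 to 26.3%). The share was 9.08% (8.02 to 10.3%) with the promoter open in no list, then 18.2%, 20.2% and 29.1% in 1, 2 and 3 lists, and 33.7% (32.5 to 34.9%) in all 4. For regions of all 4 lists the share was 0.757% with no open promoter and 6.73% with the promoter open in all 4 lists. The same lists give both counts, and genes are not independent replicates. Genes with a promoter of 1 state carried a region of any kind at shares with overlapping intervals. Of 138 genes with the promoter open only in both G1E-ER4 lists, 42 had a 3' end region (30.4%, 23.4 to 38.6%), 1 of them with a G1E-ER4-only region (0.725%, against 0.758% of all eligible ends) and 0 with a G1E-only one (up to 2.71%). Of 90 genes with the promoter open only in both G1E lists, 25 had one (27.8%, 19.6 to 37.8%), and 5 had a G1E-only region (5.56%, 2.396 to 12.4%), against 1.26% (1.07 to 1.49%) of all eligible ends. Zinc finger genes named Zfp, many of which stand in clusters, had a region at 38 of 212 ends (17.9%, 13.3 to 23.6%). With the promoter open in all 4 lists the Zfp share was 21.8% (15.8 to 29.3%).

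**Figure D3:**
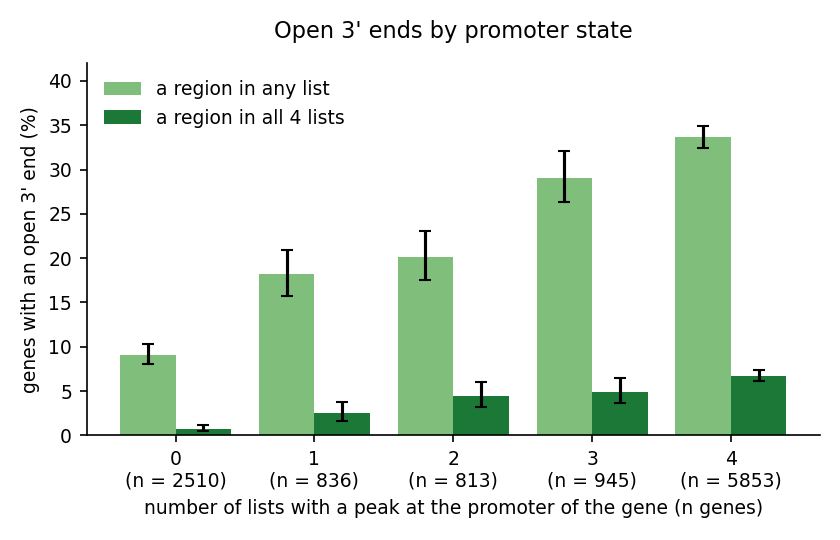
Share of gene ends (%) with a 3' end region in any list (light bars) or in all 4 lists (dark bars) against the number of lists with a peak at the gene's promoter, with Wilson 95% intervals and the number of genes under each pair of bars. The share in any list stands at 9.08% with no open promoter and at 33.7% with a promoter open in all 4 lists.

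Ends that face another gene end were open more often. Where a gene on the other strand ended within 1 kb, 238 of 602 ends had a region (39.5%, 35.7 to 43.5%), against 24.6% (23.8 to 25.5%) of the other ends. A pair of facing ends can share a region. Among genes with the promoter open in all 4 lists the shares were 40.6% (36.2 to 45.2%) and 33.1% (31.8 to 34.4%), so the gap was smaller there. Regions of all 4 lists stood at 10.3% of facing ends and 4.38% of the others. The length of the last exon made little difference, with shares between 24.1% (up to 500 bp) and 26.4% (over 500 and up to 1000 bp). Genes over 100000 bp long had a region at 17.8% of their ends (16.2 to 19.6%), against 25.6 to 28.9% in the 3 shorter length classes.

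Regions of all 4 lists with the highest mean percentile were picked for that rank, so their values near 100 in both states are a description. At Slc23a3 (chr1:75120299-75123353, 480 bp past the end) the percentiles were 97.5 and 98.4 in G1E-ER4 lists 1 and 2 and 97.6 and 97.9 in G1E lists 1 and 2. The window printed above holds GATA letters and is 66.0% GC. Dda1, a component of DDB1 ubiquitin ligases (chr8:73996782-74002010), had 99.4 and 99.3 in G1E-ER4, against 98.2 and 98.1 in G1E. Its summit fell 437 bp past the end, in a coding exon of a neighbouring gene. Dnajb12, a co-chaperone of the endoplasmic reticulum (chr10:59361022-59363218), had 95.9 and 93.4 in G1E-ER4, against 95.7 and 94.5 in G1E. The lists of the states overlap at Slc23a3 and Dnajb12. Others of the 10 highest were 1700008O03Rik, Carkd, Fam120a, the histone gene Hist2h2bb and Pank4, whose region (20877 bp wide) also reaches a transcript start. The 2 highest of all need care. Lars2, the mitochondrial leucyl-tRNA synthetase gene (chr9:123370573-123371587), had 99.96 and 99.4 in G1E-ER4, against 99.91 and 99.96 in G1E. In its 200 bp window 78.5% of the 20-base words occur elsewhere in the genome, and in that of Mid1, second in rank, 76.8%. Tags of 20 bases with several matches were kept by the authors at their best place. Such windows, with at least 50% repeated words, made up 95 of the 3247 regions (2.93%), among them 0 of 82 G1E-ER4-only and 6 of 135 G1E-only regions.

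Regions found only in G1E-ER4 were led by one in the last part of a gene. Myo1f, a class I myosin of white blood cells (chr17:33743395-33745554), had percentiles of 86.4 and 83.6, with its summit 283 bp before the gene end. Neither G1E list had a peak there. It was followed by the adrenergic receptor gene Adra1b (chr11:43587925-43588953) at 75.4 and 63.4, and by Cib1, a calcium and integrin binding protein gene (chr7:87371545-87372767), at 59.9 and 74.9. Fxyd5, a regulator of the sodium pump (chr7:31817016-31818470), had 64.3 and 60.0. Of the 10 highest, 6 had their summit in an exon outside the coding sequence, those of Myo1f, Adra1b, Cib1, Fxyd5, 2210012G02Rik and Dusp11. The rest were at Cd180, Homer2, Ykt6 and Lrrc17. Exons outside the coding sequence held the summit in 43.9% of the 82 G1E-ER4-only regions and 36.4% of all 3247. The median percentiles of all 82 were 42.8 and 39.0 in G1E-ER4 lists 1 and 2.

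Regions found only in G1E reached higher ranks at the top, but they were also more numerous, 135 against 82. The class medians of the mean percentile were close, 37.5 for G1E-only and 35.6 for G1E-ER4-only regions. Gpn1, a GTPase needed to assemble RNA polymerase II (chr5:31814610-31815653), had percentiles of 86.5 and 94.2 in G1E lists 1 and 2 and no G1E-ER4 peak, with its summit 240 bp before the end. Mfsd6, a transporter-like membrane protein gene (chr1:52711659-52712494, 950 bp past the end), had 78.6 and 85.6. Naip5, an inflammasome sensor of bacterial flagellin (chr13:100979888-100980955), had 74.3 and 85.9, and Prdm2, a histone methyltransferase gene (chr4:142696375-142697158), 70.8 and 83.4. In all 10 of the highest, G1E list 2 gave the higher percentile, and the others were at Erv3, Trim63, Gzmk, Rapgef2, the splicing factor gene Sf3b1 and Sft2d2. The Gzmk window has 54.7% repeated words. Over all 135 the median percentiles were 34.5 and 45.7 in G1E lists 1 and 2.

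Chromosomes divided the one-state regions unevenly. Chromosome 7 held 13 of 82 G1E-ER4-only and 3 of 135 G1E-only 3' end regions, chromosome 12 held 0 G1E-ER4-only and 17 G1E-only, and chromosome 9 held 12 G1E-ER4-only and 7 G1E-only. Over all distal regions the shares on chromosome 7 were 16.6% of G1E-ER4-only and 3.31% of G1E-only regions, and on chromosome 12 they were 1.79% of G1E-ER4-only and 16.4% of G1E-only regions. On chromosome 9 they were 8.75% of G1E-ER4-only and 4.63% of G1E-only distal regions, against 14.6% and 5.19% of the G1E-ER4-only and G1E-only 3' end regions. On chromosomes 7 and 12 the imbalance of the 3' end regions was thus also that of the distal regions, and its part in the one-state counts was not tested.

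Among regions of all 4 lists, the largest rank differences lay near 50 percentile points in either direction. Pdcd6ip, which encodes the membrane-sorting protein Alix (chr9:113559448-113564440), had 68.5 and 66.6 in G1E-ER4, against 27.5 and 1.15 in G1E, a difference of 53.2. Kiss1, the kisspeptin gene (chr1:135225084-135226644), had 48.2 and 67.5 in G1E-ER4, against 6.45 and 7.63 in G1E, a difference of 50.8. Fiz1, Gpr179 and Syde1 completed the 5 highest, with differences from 48.5 to 52.2. In the other direction Dhx34, a helicase of nonsense-mediated decay (chr7:16781781-16783063), had 1.51 and 25.4 in G1E-ER4, against 67.5 and 60.8 in G1E, a difference of -50.7. Lhx5, a homeobox gene (chr5:120889055-120891275), had 43.2 and 30.3 in G1E-ER4, against 86.2 and 81.6 in G1E. Gm4934, Lin52 and Pon2 completed the 5 lowest, and the Lin52 window has 55.8% repeated words. The states do not overlap at any of the 10, which is how they were picked. The spread inside a state was large at several of them, as at Gm4934 with 47.3 and 8.28 in the G1E-ER4 lists.

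Erythroid and progenitor genes with an eligible end were few. Over all eligible ends, a region of all 4 lists stood at 4.71%, a G1E-ER4-only region at 0.758% and a G1E-only region at 1.26%, and with lists of this size a single gene outweighs these shares. Of 14 erythroid transcription factor genes with an eligible end, 5 had a 3' end region, 2 of them in all 4 lists, 0 G1E-ER4-only and 1 G1E-only. Lmo2 (chr2:103822122-103823637, 546 bp past the end and inside an intron of a neighbouring gene) had percentiles of 75.3 and 88.7 in G1E-ER4, against 83.1 and 85.8 in G1E. Its window, printed above, holds both GATA letters and the CTCF core. Tal1, the basic helix-loop-helix partner of Lmo2 (chr4:114741858-114746329, 83 bp past the end), had 81.3 and 60.9 in G1E-ER4, against 71.6 and 81.8 in G1E. The lists of the states overlap at both genes. Foxo3, which guards maturing red cells against oxidative stress (chr10:41900191-41902043, 972 bp past the end), had 61.2 and 60.3 in G1E-ER4, with 26.1 in G1E list 2 and none in list 1. Myb, which keeps progenitors dividing (chr10:20842855-20844128, 944 bp past the end), had no G1E-ER4 peak and 23.1 and 11.9 in G1E, both low ranks. E2f2, a cell cycle activator, had a peak in G1E-ER4 list 2 (59.6) and G1E list 1 (1.27) only.

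Among 12 heme and iron genes, 5 had a region, 1 in all 4 lists, 0 G1E-ER4-only and 1 G1E-only. Slc25a37 (chr14:69858165-69860190, 142 bp past the end) had 80.0 and 82.8 in G1E-ER4, against 76.8 and 81.1 in G1E, which overlap. Slc11a2, an iron importer (chr15:100218692-100219705), had no G1E-ER4 peak and 1.27 and 51.9 in G1E. A second Slc11a2 region was in G1E-ER4 list 1 alone, at 35.2. Slc40a1 (the iron exporter ferroportin), Aco1 and Hmox1 (which degrades heme) each had a region in a single G1E-ER4 list, at 22.9, 28.9 and 16.1. Of 5 red cell membrane genes, 3 had a region and none was in all 4 lists. At Slc4a1 (chr11:102208704-102211603, 323 bp past the end) the percentiles were 63.5 and 69.2 in G1E-ER4, with 24.3 in G1E list 2 and none in list 1. Rhd and Aqp1 had regions at percentiles between 3.19 and 33.0. None of the 7 globin genes had an end far enough from a start to be eligible.

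Of 9 genes of erythropoietin signalling and survival, 2 had a region. Bcl2l1, the survival factor Bcl-xL (chr2:152591517-152593970, 706 bp past the end), had 87.3 and 87.5 in G1E-ER4, against 81.4 and 78.0 in G1E, so both G1E-ER4 values were higher. Tspan33 (chr6:29668741-29669684) had 72.1 in G1E-ER4 list 2, 51.7 and 66.99 in G1E and no peak in G1E-ER4 list 1. Among 17 progenitor genes, 7 had a region, 3 in all 4 lists, 0 G1E-ER4-only and 1 G1E-only (Myb). Cbfb (chr8:107741756-107742392, 117 bp past the end) had 15.6 and 34.7 in G1E-ER4, against 64.4 and 65.1 in G1E, and the window printed above holds the CTCF core. Its partner gene Runx1 (chr16:92600337-92602080, 131 bp before the end) lay the other way, at 53.5 and 66.3 in G1E-ER4, against 5.46 and 44.1 in G1E. At Kit (chr5:76052761-76056112, 503 bp past the end) 1 list of each state differed from its pair, with 69.0 and no peak in G1E-ER4 lists 1 and 2 and 13.6 and 62.1 in G1E lists 1 and 2. Erg and Etv6, both ETS factor genes, had a region in a single list each.

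**Figure D4:**
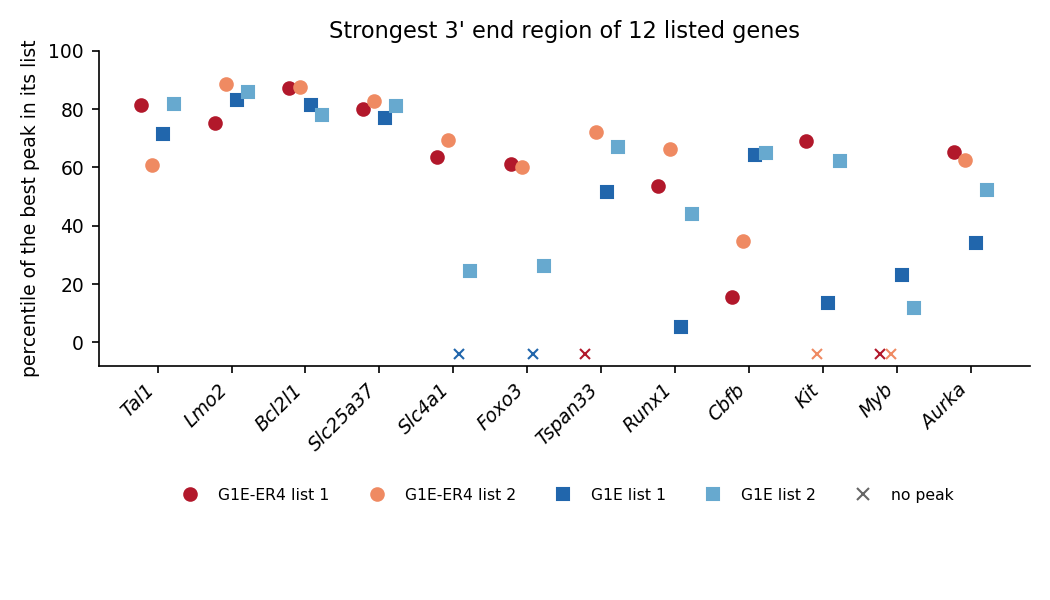
Percentile within its list (0 to 100) of the best peak in the strongest 3' end region of 12 listed genes, for G1E-ER4 lists 1 and 2 (circles) and G1E lists 1 and 2 (squares), with crosses for lists without a peak. At Lmo2, Bcl2l1 and Slc25a37 all 4 values lie between 75.3 and 88.7, while Slc4a1 and Foxo3 have G1E-ER4 values over 60 and at most 26.1 in G1E.

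Genes of other programs had few regions of all 4 lists or of 1 state. Of 12 cell cycle genes 7 had a region, 1 of them in all 4 lists, at Aurka, a mitotic kinase (chr2:172180292-172182992), with 65.2 and 62.7 in G1E-ER4, against 34.0 and 52.2 in G1E. Ccnd2, a G1 cyclin gene, had a G1E-only region (chr6:127074645-127075171) at 3.34 and 54.4. Of 14 genes of 3' end processing and termination, 5 had a region. Slbp, which binds the stem-loop of histone messages (chr5:33977761-33978389), had 60.9 and 35.0 in G1E-ER4 and no G1E peak, the one G1E-ER4-only region over all these gene lists. Cpsf4, a subunit that reads the poly(A) signal (chr5:145941247-145942908), had 59.3 in G1E-ER4 list 2, 67.1 and 28.2 in G1E and no peak in G1E-ER4 list 1. Of 8 insulator and looping genes 1 had a region, Yy1, in G1E list 1 alone. Of 7 megakaryocyte genes 2 had one, Tubb1 and Itgb3, and of 3 granulocyte, monocyte and mast cell genes 1, Csf1r. Over all eligible genes 25.5% had a region, and of those with the promoter open in all 4 lists 33.7%. All 24 cell cycle genes listed had such a promoter, and their interval (32.0 to 80.7%) includes the second share and not the first. The Wilson intervals of the other gene lists with an eligible end include both.

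Of the genes with 3 regions at 1 end, the 5 with the highest-ranked region are given. At Adat1, a tRNA editing enzyme gene, a region of all 4 lists (chr8:114490959-114493280) had 80.7 and 85.9 in G1E-ER4, against 88.9 and 87.7 in G1E, beside 2 regions of a single list. St3gal5, which makes the ganglioside GM3, had a region of all 4 lists 148 bp past the end (chr6:72104462-72105648) at 94.1 and 67.8 in G1E-ER4, against 89.9 and 90.04 in G1E. E130018O15Rik had the same arrangement, 1 region of all 4 lists and 2 of a single list, while Eif2d and Tubgcp3 had none in all 4 lists.

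The CTCF core was more common in regions of all 4 lists than in those of 1 state. It stood in 25.05% of the 511 (21.5 to 29.0%), 1.22% of G1E-ER4-only (0.216 to 6.59%) and 2.22% of G1E-only regions (0.759 to 6.33%). Among other distal regions, 20.4% of those in all 4 lists, 3.66% of the G1E-ER4-only and 5.42% of the G1E-only ones held it. Over all 3247 regions the share was 6.74%, against 7.17% from 1 to 5 kb from a gene end and 5.73% over all other distal regions. GATA letters stood in 34.6% of the 511 (30.6 to 38.9%), 32.9% of G1E-ER4-only (23.7 to 43.7%) and 32.6% of G1E-only regions (25.3 to 40.9%), and these intervals overlap. In other distal regions they stood in 38.0% of those in all 4 lists, 41.1% of the G1E-ER4-only and 37.6% of the G1E-only ones. Over all 3247 regions the GATA share was 28.03% (26.5 to 29.6%), against 29.3% (28.5 to 30.2%) from 1 to 5 kb away, which overlaps, and 32.5% (32.2 to 32.7%) over other distal regions. Shuffled letters, with AGTA in place of GATA, stood in 21.1% of the 3247, 22.1% of regions 1 to 5 kb away and 23.0% of other distal regions. The control letters were thus also less common at 3' ends than in other distal regions, by a smaller gap. By class, they stood in 17.2% of the 511 (14.2 to 20.7%), 17.1% of G1E-ER4-only (10.5 to 26.6%) and 21.5% of G1E-only regions (15.4 to 29.1%). The GATA and control intervals overlap in both one-state classes and not in the 511. Median GC was 51.5% at 3' ends, 51.0% from 1 to 5 kb away and 50.0% in other distal regions. ETS letters (CCGGAA) stood in 10.98% of G1E-ER4-only regions (9 of 82, 5.88 to 19.6%), against 2.22% of G1E-only regions (0.759 to 6.33%). They stood in 4.59% (2.75 to 7.56%) of G1E-ER4-only regions 1 to 5 kb from a gene end and 3.10% of other distal G1E-ER4-only regions. The intervals of G1E-only regions and at 1 to 5 kb overlap that of the 82. ETS is only one of several letter sets searched. In G1E-ER4-only and G1E-only regions, AP-1 letters stood in 7.32% and 8.89%, CACCC box letters in 12.2% and 13.3%, and RUNX letters in 15.9% and 17.0%. The E-box letters CAGNTG, with A or C as N, stood in 31.8% of the 3247, 30.4% of regions 1 to 5 kb away and 29.4% of other distal regions. The letters AATAAA on the strand of the gene stood in 7.30% of the 3247, against 5.39% of regions 1 to 5 kb away and 6.598% of other distal regions. All searches but the last used both strands, and matches are letters, not sites.

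**Figure D5:**
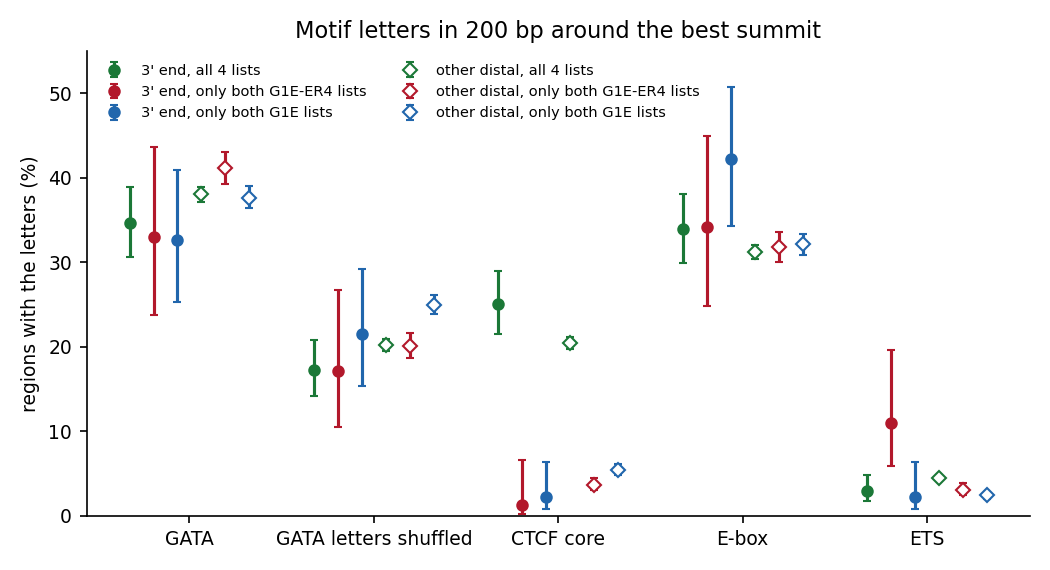
Share of regions (%) with the motif letters in 200 bp around the best summit, with Wilson 95% intervals, for 3' end regions (filled circles) and other distal regions (open diamonds) in 3 classes of presence. The CTCF core stands in 25.05% of 3' end regions of all 4 lists and in 1.22% and 2.22% of the G1E-ER4-only and G1E-only ones.

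Gata1 itself had no region under the rule, because its candidate lay too close to a start. This region (chrX:7536714-7538015) had its summit 657 bp before the gene end and 4249 bp from a transcript start. Its percentiles were 89.5 and 89.2 in G1E-ER4, with no G1E peak. Another G1E-ER4-only region, with its summit 3073 bp before the gene end (chrX:7538924-7540486), had 89.2 and 88.7. The restored gene is an added copy whose tags map to the same exons, so peaks of the copy and of the locus itself cannot be told apart. At the limits of the rule, Ensa was included with its summit at 1000 bp from the gene end (73.8 and 82.9 in G1E-ER4, 74.7 and 78.9 in G1E). Itih1, with a peak in G1E-ER4 list 1 alone (32.3), was left out at 1002 bp. Gm1568, in G1E-ER4 list 1 alone (57.2), was included at 5007 bp from a start, and Angptl7 was left out at 4994 bp with 0.585 in G1E-ER4 list 1 and 15.2 and 39.9 in G1E.

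For the cell type, promoters of 9 of 10 erythroid marker genes had a peak in all 4 lists, against 1 of 6 lymphoid, 1 of 5 myeloid, 1 of 5 liver and 2 of 4 annotated neural markers. Peaks had median widths of 579 and 836 bp in the G1E-ER4 lists, against 520 and 646 bp for G1E. The numbers of 3' end regions with a peak were 1349 and 1686 in G1E-ER4, against 1442 and 1552 in G1E, so G1E-ER4 list 1 had the fewest. Intervals cover only the counting of regions or genes, as read depth is not known.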

How the data were processed

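DNase-seq peaks were taken from 4 deposited lists, 2 for G1E-ER4 and 2 for G1E. Per the series design text, tags of 20 bases were aligned to mm9 with Bowtie, keeping tags with several matches at their best place, and F-seq densities gave peaks by a gamma fit. The sources used here give no versions. The deposited peak value is a signal, the authors' F-seq density, with no scaling between lists stated, so it served only as a percentile within its list. Depth is unknown.

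Peaks sharing at least 1 bp were merged (Python 3.11.15, numpy 2.4.6, pandas 2.3.3), and the best summit was placed with GENCODE vM1 genes and starts of all annotated transcripts. The members and gene lists were chosen with earlier results of these data known. Named regions are the 10 highest by mean percentile in each of 3 classes, the 5 largest rank differences each way, listed genes with both lists of a state, and genes with most regions; single-list regions of listed genes and the values on the 200 bp around gene ends, base composition by list, repeated words (in place of masked repeats) and Zfp genes were added after the data were seen. Shares have Wilson 95% intervals, density ratios exact binomial ones (SciPy 1.17.1). Letters and words were read from mm9 with pysam 0.24.0. The steps were tested on 4000 simulated regions, of which all 1000 members were found (100%). Alternatives changed distances, ends, merging, presence, rank, motif window and lists.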

Additional observations from a re-analysis of the deposited data

How the results depend on the processing

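Of 120 alternatives, 75 stayed close to the main value, 44 moved it and 1 reversed it. Close means a count changed by no more than a factor of 1.5, a share inside its counting interval, or a density ratio or rank difference inside its own spread. For the share of peaks in each list it means only the same sign, and for GC a change within a fixed margin. The spread of the rank difference, 1.72 points, exceeds its main value of 1.45, so even no difference would count as close. The reversed one was the share of peaks at 3' ends, 0.049 points higher in G1E-ER4 without G1E-ER4 replicate 1 against -0.078 with all lists and -0.205 as the lowest value with a list left out. No paired analysis was possible because each state is 1 sample and both carry the same replicate number. With 500 bp and 2 kb from the gene end, the counts were 1552 and 6249 regions, 47 and 167 G1E-ER4-only, 65 and 245 G1E-only, and 254 and 950 in all 4 lists, at 13.8% and 38.3% of ends. With 2 kb and 10 kb from every start they were 5156 and 1791 regions, 133 and 42 G1E-ER4-only, 206 and 79 G1E-only, and 877 and 260 in all 4 lists, with 14.5% of ends at 10 kb. In the top 50% of each list they were 1396, 43, 73 and 324, at 12.3% of ends. Ends of all protein-coding transcripts gave 4715 regions, 125 G1E-ER4-only and 701 in all 4 lists, presence by a peak over the best summit left 403 in all 4 lists, and merging across 150 bp put regions at 23.8% of ends. In each of these settings the G1E-only count was the higher, but not with a G1E-ER4 list left out. Leaving out each list gave 135 to 701 G1E-ER4-only and 219 to 594 G1E-only regions, fewer lists making a class easier to meet, 22.8 to 23.7% of ends, 47.6 to 51.6% of summits past the end and a median rank difference of 0.46 to 3.55 points. The density ratio near ends was 1.04 at 500 bp and 1.17 at 2 kb from every start. A 400 bp window raised GATA letters to 45.7% and the CTCF core to 7.88%, being wider. Unknown depth, equal list lengths and 1 sample per state limit all comparisons. Alternatives chosen after seeing the data, without regions that reach a start or with mostly repeated words, gave 82 G1E-ER4-only regions in both cases and 135 and 129 G1E-only ones.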
